A study of Mus musculus and Rattus norvegicus with 28 samples.

Results

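Cytochrome c oxidase, complex IV of the respiratory chain, passes electrons from cytochrome c to oxygen in the inner mitochondrial membrane. Its catalytic core is encoded by mitochondrial DNA, whereas the subunits around the core are nuclear, and several of these exist as tissue isoforms encoded by separate genes. In heart and skeletal muscle, Cox6a2, Cox7a1 and Cox8b encode the muscle forms of subunits that most other tissues make from Cox6a1, Cox7a2 and Cox8a. Cox4i2 encodes an oxygen-responsive form of subunit 4, known from lung and from cells of the vessel wall, beside the ubiquitous Cox4i1, and Cox6b2 encodes a testis form of the subunit otherwise made from Cox6b1.

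These 10 genes were taken by symbol from RNA-seq of perinatal cardiomyocytes, out of 55450 mouse genes. In the rat files 9 of the 10 symbols were present among 32622 genes, because no gene there carried the symbol Cox7a2. The genes were chosen from isoform levels and shares already seen in these libraries, so their own values are given as a description without a test. The study isolated cardiomyocytes from left ventricles of wild-type C57BL/6 mice at embryonic day 18.5 (E18.5) and postnatal days 1, 3 and 7 (P1, P3 and P7), with 2 RNA-seq libraries and 2 ATAC-seq peak lists at each time point. It also cultured cardiomyocytes of Sprague Dawley rats at postnatal day 1, which received 100 nM TSA (trichostatin A, an inhibitor of histone deacetylases) or DMSO, the solvent control, 1 day after plating, with 3 RNA-seq libraries each. Male and female animals were used, and the labels name no genetic change in any group. The study's TSA method also describes transfection with control siRNA or siRNA against Mef2a. Whether the rat cells used for RNA-seq were transfected was not given. Non-cardiomyocytes were reduced by letting them attach to a dish first, and how many animals made up a library was not given in the sources used here. The study calls its replicates biological without saying which animals they came from, so p-values measure the spread between these libraries.

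Levels are gene FPKM, the sum over a gene's transcripts of fragments per kilobase of transcript scaled to library depth. Comparisons between genes, such as their order and the shares, depend on this division by transcript length. Shares without it are given at the end. The depth estimated from coverage was between 29.3 and 37.5 M reads in mouse and between 28.2 and 38.5 M in rat. Of 16 cardiomyocyte marker genes (among them Tnnt2, Myh6 and Actn2) none was at 0 in any mouse library, and their summed FPKM was 29479 to 37986 at E18.5, 14384 to 23287 at P1, 8402 to 9692 at P3 and 1020 to 2406 at P7. The summed FPKM of 10 fibroblast markers went the other way, from 459.5 to 467.9 at E18.5 to 2969 to 3705 at P7, where it exceeded the cardiomyocyte sum. In both P7 libraries, labelled as cardiomyocytes, the fibroblast sum was therefore the larger. Sums over lists of different genes are not shares of cells. The study judged purity by staining for cardiac troponin T and reported it as high, also at P7. Purity was not analysed here. The 6 erythroid genes summed to 29044 and 35391 at E18.5 and to no more than 41.04 later.

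In these bulk libraries, fewer cardiomyocytes and less of an RNA per cardiomyocyte cannot be told apart, which applies to every mouse level below. All 10 isoform genes passed the filter on low values in mouse (2 or more libraries at 1 FPKM or above).

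The promoters at hand held unlike numbers of CpG, the dinucleotide that mammalian DNA methylation acts on and that many broadly used promoters are rich in. RefSeq promoters of GRCm38.p6 were at hand for 7 of the 10 genes (Cox6a1, Cox6b1, Cox6b2, Cox7a1, Cox7a2, Cox8a and Cox8b). In the 250 bases before the start, Cox8b held 1 CpG, Cox7a1 4, Cox6b2 8, Cox8a 11, Cox7a2 and Cox6b1 14 each and Cox6a1 26. The median over 32851 promoters was 6. Of all promoters, 18.8% held as few CpG as Cox8b or fewer, and 44.4% as few as Cox7a1 or fewer. At the other end, 35.6% held as many as Cox8a or more, and 9.59% as many as Cox6a1 or more. The pairs of subunits 7a and 8 are printed because they put a muscle form beside its ubiquitous partner. Each run reads 5′ to 3′ along the gene and capitals mark CpG. Bases that an annotated transcript covers were left out, which leaves 3 CpG for Cox7a1 and 12 for Cox7a2. The runs lie at chr7:30183921-30184143 on the plus strand for Cox7a1 and, on the minus strand, at chr9:79759879-79760103 for Cox7a2, chr7:140900447-140900696 for Cox8b and chr19:7217617-7217866 for Cox8a.
Cox7a1: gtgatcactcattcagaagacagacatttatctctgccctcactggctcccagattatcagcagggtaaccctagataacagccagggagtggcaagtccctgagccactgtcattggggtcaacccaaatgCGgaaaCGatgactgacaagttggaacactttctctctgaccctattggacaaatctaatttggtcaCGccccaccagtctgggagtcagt
Cox7a2: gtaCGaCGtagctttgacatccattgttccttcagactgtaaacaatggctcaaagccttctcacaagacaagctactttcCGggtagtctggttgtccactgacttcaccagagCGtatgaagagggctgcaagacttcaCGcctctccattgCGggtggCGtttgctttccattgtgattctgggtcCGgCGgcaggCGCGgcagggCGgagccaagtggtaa
Cox8b: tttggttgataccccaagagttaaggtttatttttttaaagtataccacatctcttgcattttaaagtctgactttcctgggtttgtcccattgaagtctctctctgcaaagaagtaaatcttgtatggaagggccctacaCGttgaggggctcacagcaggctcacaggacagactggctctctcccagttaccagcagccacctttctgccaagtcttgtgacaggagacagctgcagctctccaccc
Cox8a: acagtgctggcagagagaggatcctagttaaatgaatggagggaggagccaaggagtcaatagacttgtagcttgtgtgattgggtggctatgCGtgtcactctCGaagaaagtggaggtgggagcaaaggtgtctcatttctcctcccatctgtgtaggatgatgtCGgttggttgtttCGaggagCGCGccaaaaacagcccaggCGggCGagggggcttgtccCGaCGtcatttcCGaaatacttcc

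On both strands of these 250 bases 5 motifs were searched, counting overlapping matches. The E-box CANNTG occurred 1 time each in Cox7a1, Cox7a2, Cox8a and Cox8b and 2 times in Cox6b1, and 66.2% of all promoters held at least 1. The NRF1 core GCATGCGC had 2 overlapping matches in Cox6a1 and none in the other 6, against 2.26% of all promoters. Neither the MEF2 consensus (in 2.92% of all promoters), nor the ERR element TCAAGGTCA (0.387%), nor the AP1 motif TGANTCA (6.75%) was found in the 7 windows.

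All 3 muscle isoforms had lower levels in every postnatal library than in either E18.5 library, and at P7 their means were between 19.0-fold and 36.5-fold lower. Cox6a2, the muscle form of subunit 6a (chr7:128205435-128206387, mm10), was at 748.5 and 912.9 FPKM at E18.5, with P1 at 180.2 and 263.1, P3 at 153.3 and 108.8, and P7 at 36.34 and 9.117. The libraries of neighbouring time points did not overlap, and the 2 P7 libraries differed more from each other in proportion than those of any earlier time point. The mean was 3.75-fold lower at P1 than at E18.5 and 36.5-fold lower at P7, and the log2 fold change (log2FC, on the log2(FPKM + 1) scale) at P7 was -5.41 (SE 0.52). It was -6.35 without P7 replicate 1 and -4.47 without P7 replicate 2.

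Cox7a1, the muscle form of subunit 7a (chr7:30184144-30186078), was at 111 and 134.3 FPKM at E18.5, with P1 at 35.4 and 49.93, P3 at 28.67 and 23.78 and P7 at 7.131 and 3.745. Its groups did not overlap either. The mean was 2.88-fold lower at P1 and 22.6-fold lower at P7 than at E18.5, with a log2FC at P7 of -4.31 (SE 0.27), or -4.70 and -3.92 without P7 replicate 1 and 2.

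Cox8b, the muscle form of subunit 8 (chr7:140898945-140900446), was at 136.5 and 170.4 FPKM at E18.5, then 32.16 and 63.55 for P1, 38.49 and 21.56 for P3 and 11.7 and 4.424 for P7. Here P1 and P3 overlapped, and both P7 libraries lay below all others. The mean was 3.21-fold lower at P1 and 19.0-fold lower at P7 than at E18.5, with a log2FC at P7 of -4.21 (SE 0.46), or -4.82 and -3.60 without P7 replicate 1 and 2. The P7 values of Cox7a1 and Cox8b rest on at least 54.02 and 57.1 estimated reads per library.

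The ubiquitous partners also had lower means after birth than at E18.5, and at P7 the gap was between 2.32-fold and 3.66-fold. Cox6a1 (chr5:115345642-115348981) was at 884 and 1088 FPKM at E18.5, with P1 at 606.4 and 663.1, P3 at 540.2 and 493.2 and P7 at 447.2 and 401.3. Its 4 groups stood apart in order of age. The mean at P7 was 2.32-fold below E18.5, with a log2FC of -1.21 (SE 0.14).

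Cox7a2 (chr9:79755361-79759878) went from 329 and 411.6 FPKM at E18.5 to 109.7 and 92.36 at P7, 3.66-fold lower in the mean (log2FC -1.86, SE 0.15), with P1 at 176.4 and 190.8 and P3 at 148.7 and 134.8. Its groups did not overlap. Cox8a (chr19:7215153-7217616) behaved less evenly: it was at 433.4 and 995.3 FPKM at E18.5, then 283.4 and 611.9 for P1, 495.2 and 453.6 for P3 and 172.2 and 303.2 for P7. The first library was the lower at 3 of the 4 time points, and the groups of Cox8a overlapped, apart from E18.5 against P7 and P3 against P7. Its log2FC at P7 was -1.52 (SE 0.47), and it was no longer called changed when E18.5 replicate 2 (log2FC -0.92) or P7 replicate 1 (log2FC -1.11) was left out, or without an expression filter. Its uncalled log2FC at P3 was -0.47, or 0.13 without E18.5 replicate 2.

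The 2 genes of subunit 4 moved in opposite directions between E18.5 and P7. Cox4i1 (chr8:120668222-120674207) fell from 1165 and 1360 FPKM at E18.5 to 344.7 and 295.6 at P7, by way of 559.6 and 668.1 (P1) and 473.8 and 448.6 (P3), a mean 3.94-fold lower at P7 (log2FC -1.98, SE 0.15). Cox4i2 (chr2:152754173-152765037), by contrast, was at 4.019 and 4.868 FPKM at E18.5, with P1 at 2.707 and 3.714, P3 at 4.898 and 4.89 and P7 at 11.47 and 14.26. Its P7 libraries lay above the other 6, and the mean was 2.90-fold higher at P7 than at E18.5 and 4.01-fold higher than at P1 (log2FC 1.35 and 1.72, SE 0.19 for each). Cox4i2 was thereby the only isoform with a higher mean at P7 than at E18.5, and it stayed a small part of subunit 4.

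Of the subunit 6b genes, Cox6b1 (chr7:30616861-30626151) went from 611.9 and 717.2 FPKM at E18.5 to 200.1 and 163.4 at P7 (log2FC -1.87, SE 0.15), with P1 at 365.3 and 405.8 and P3 at 300.8 and 257.3. Its groups stood apart at every step. Cox6b2 (chr7:4751792-4753094) was low throughout: 5.793 and 14.35 FPKM at E18.5, then 0.9334 and 1.472 for P1, 0.8438 and 0.2053 for P3 and 0.7208 and 0.5709 for P7. Only at E18.5 was it above 5 FPKM, and its later values rest on as few as 3.85 estimated reads in a library. After birth 1 of its 6 libraries reached 1 FPKM, so it passed the filter through E18.5, and it was not tested with a mean FPKM of at least 5. Its log2FC at P7 was -2.63 (SE 0.37), or -3.22 without E18.5 replicate 1.

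**Figure D1:**
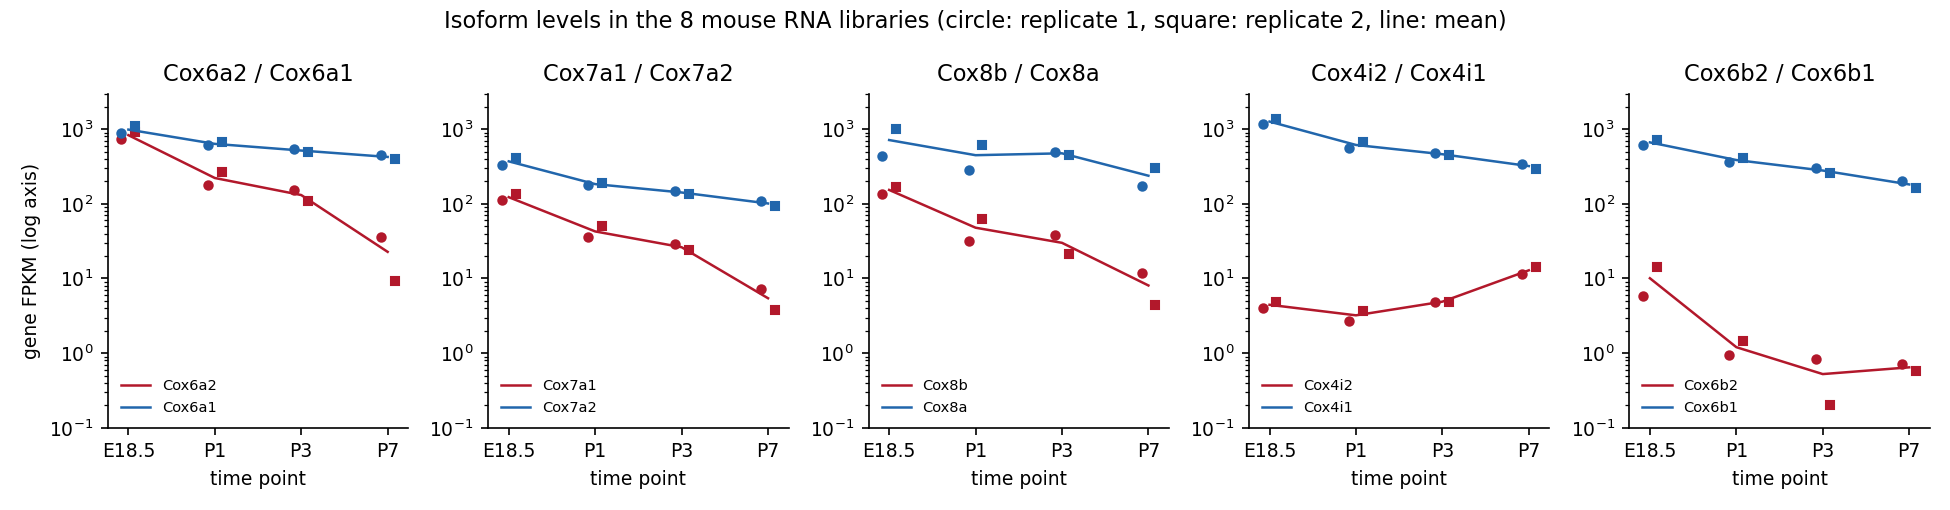
Gene FPKM (log axis) of the 5 isoform pairs in the 8 mouse RNA libraries by time point; points are libraries and lines join the means, red for the tissue isoform and blue for the ubiquitous one. The 3 muscle isoforms drop away from their partners by P7, Cox4i2 rises from between 2.707 and 4.898 to above 11 FPKM, and Cox6b2 stays at or below 1.472 FPKM after birth.

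In order of mean level, Cox4i1 led at E18.5, and Cox6a1 after birth, where it stood apart from the next gene at P7 but overlapped with it at P1 and P3. At E18.5 the neighbours Cox6a1 and Cox6a2, Cox6a2 and Cox8a, and Cox8a and Cox6b1 overlapped in their libraries, so their order there is not settled. Cox6a2 came after Cox4i1 and Cox6a1 at E18.5 and below all 5 ubiquitous isoforms in the mean at P3 and P7, though its libraries overlapped those of Cox7a2 at P3. At P7 Cox6a2, Cox4i2, Cox8b and Cox7a1 followed each other with overlapping neighbours.

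A gene was called changed at an adjusted p below 0.05 and an absolute log2FC above 1 by limma across 13979 genes. At P1, 6 of the 10 isoform genes were called lower than at E18.5 (Cox4i1, Cox6a2, Cox6b2, Cox7a1, Cox7a2 and Cox8b), where 6.06% of all tested genes were. At P3 the count was 7, with Cox6b1 added, against 8.88% of all genes. At P7 it was 9, all but Cox4i2, against 12.3% called lower, while Cox4i2 was called higher against 15.4%. Between P1 and P7, Cox6a2, Cox6b1, Cox7a1 and Cox8b were called lower, against 5.46%, and Cox4i2 higher, against 3.45%. Since these levels chose the genes, the counts describe them and test nothing. Against E18.5, the 10 genes had a median log2FC of -1.02, -1.41 and -1.92 (P1, P3, P7), beside 0.15, 0.16 and 0.14 over all genes; between P1 and P7 it was -0.90, beside 0.00.

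Dividing FPKM by median-of-ratios size factors moved the median of all genes to -0.01, -0.02 and -0.01, and TPM moved it to 0.38, 0.41 and 0.40. Called genes were higher rather than lower in 62.5% of calls at P1, 59.4% at P3 and 55.7% at P7, in 45.7%, 45.7% and 45.5% with size factors and in 77.3%, 74.4% and 68.1% with TPM. Among the isoforms a single direction flipped, that of Cox4i2 at P3 (log2FC 0.12, or -0.06 with size factors), which was not called. Several calls depended on a setting or a library. The P1 count fell to 2 without E18.5 replicate 2 and without P1 replicate 1, where Cox4i1, Cox6a2, Cox7a2 and Cox8b lost their calls. Cox6a2 and Cox8b also lost theirs at P1 without E18.5 replicate 1 and without an expression filter, and Cox4i1 and Cox7a2 with TPM. With TPM, Cox6b1 was not called at P3 and Cox6a1 not at P7 (log2FC -0.95). Cox6a1 was called at P3 with size factors (log2FC -1.14) and without E18.5 replicate 1 (-1.07). Between P1 and P7, Cox8b was not called without P1 replicate 2 or without an expression filter, Cox6b1 not without P7 replicate 2 (log2FC -0.94), and Cox4i1 was called without P1 replicate 1 (-1.06) or P7 replicate 1 (-1.05).

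The share of a pair held by the tissue form needs no scaling between libraries. It is a share of bulk RNA, however. A changed mix of cells and a changed share within cardiomyocytes cannot be told apart. Cox6a2 made up 45.7% ± 0.158 of subunit 6a FPKM at E18.5 (mean ± SD, n = 2 here and for each mouse share), 25.7% ± 3.89 at P1, 20.1% ± 2.85 at P3 and 4.87% ± 3.74 at P7. Cox7a1 made up 24.9% ± 0.444, 18.7% ± 2.85, 15.6% ± 0.825 and 5% ± 1.56 of subunit 7a. Cox8b made up 19.3% ± 6.6, 9.8% ± 0.554, 5.87% ± 1.89 and 3.9% ± 3.48 of subunit 8. The 3 muscle forms began at unequal mean shares and lay between 3.9% and 5% at P7, where the shares of single libraries ran from 1.44% to 7.52%.

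Neighbouring time points did not always differ in these shares. The Cox6a2 share was 22.9% and 28.4% at P1 and 22.1% and 18.1% at P3, without overlap and with a gap smaller than the spread of either group. The Cox8b share of the first P7 library (6.36%) lay between both P3 libraries (7.21% and 4.54%). For all 3 pairs, both E18.5 libraries were above every postnatal library. Summed over the 3 pairs, the muscle forms held 37.7% and 32.8% at E18.5, with P1 at 18.9% and 20.4%, P3 at 15.7% and 12.5% and P7 at 7.03% and 2.12%.

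The Cox4i2 share of subunit 4 went the other way, from 0.344% and 0.357% at E18.5 to 3.22% and 4.6% at P7, with P1 at 0.481% and 0.553% and P3 at 1.02% and 1.08%. No libraries of different time points overlapped. The Cox6b2 share was 0.938% and 1.96% at E18.5 and at most 0.361% in any later library.

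**Figure D2:**
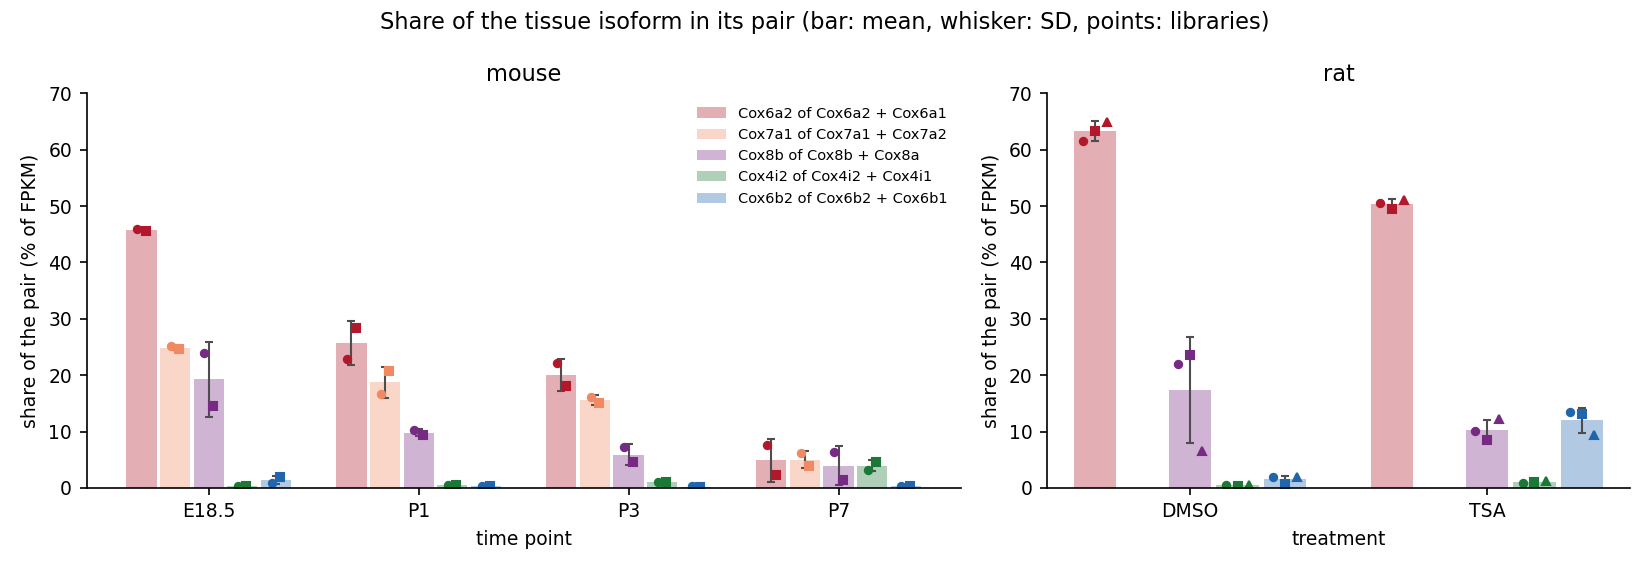
Share of the tissue isoform in the FPKM of its pair, in percent, for mouse time points (left) and rat treatments (right); bars are means, whiskers SD (2 mouse or 3 rat libraries) and points libraries. The Cox6a2 bar goes from 45.7% at E18.5 to 4.87% at P7 in mouse and from 63.4% in DMSO to 50.4% in TSA in rat; rat has no Cox7a1 bar.

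Set against the cardiomyocyte markers of the same library, the muscle isoforms differed far less between E18.5 and P7 than their partners did. Per 1000 FPKM of the 16 markers, Cox7a1 was at 3.766 and 3.536 FPKM at E18.5, then 2.461 and 2.144 for P1, 2.958 and 2.831 for P3 and 2.964 and 3.67 for P7. Cox8b was at 4.632 and 4.485 at E18.5, with P1 at 2.236 and 2.729, P3 at 3.972 and 2.566 and P7 at 4.863 and 4.336, so both genes had their lowest mean at P1, and at P7 their values overlapped those of E18.5. Cox6a2 was at 25.39 and 24.03 at E18.5, then 12.53 and 11.3 for P1, 15.81 and 12.95 for P3 and 15.1 and 8.935 for P7, below its E18.5 values in every postnatal library. The markers are mostly contractile and calcium-handling genes, and whether their level per cardiomyocyte changed with age was not tested.

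On the same scale Cox6a1 rose from 29.99 and 28.64 at E18.5 to 185.8 and 393.3 at P7, Cox7a2 from 11.16 and 10.84 to 45.61 and 90.52, and Cox8a from 14.7 and 26.2 to 71.55 and 297.2. Of these 4 genes Cox4i2 showed the steepest increase, from 0.1363 and 0.1281 to 4.766 and 13.97. The mean FPKM of Cox6a1, Cox7a2 and Cox8a was lower at P7 than at E18.5. They rose on this scale since its denominator, the marker sum, fell further. All 16 cardiomyocyte markers were called lower at P7 than at E18.5, 14 of 16 at P3 and 3 of 16 at P1, and 9 of 10 fibroblast markers were called higher at P7. Of 10 pericyte and smooth muscle markers, 4 were called higher and 2 lower at P7, and their sum was 412.5 and 536.9 FPKM at E18.5 and 1284 and 1484 at P7. The part of these shifts in the isoform levels was not tested.

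**Figure D3:**
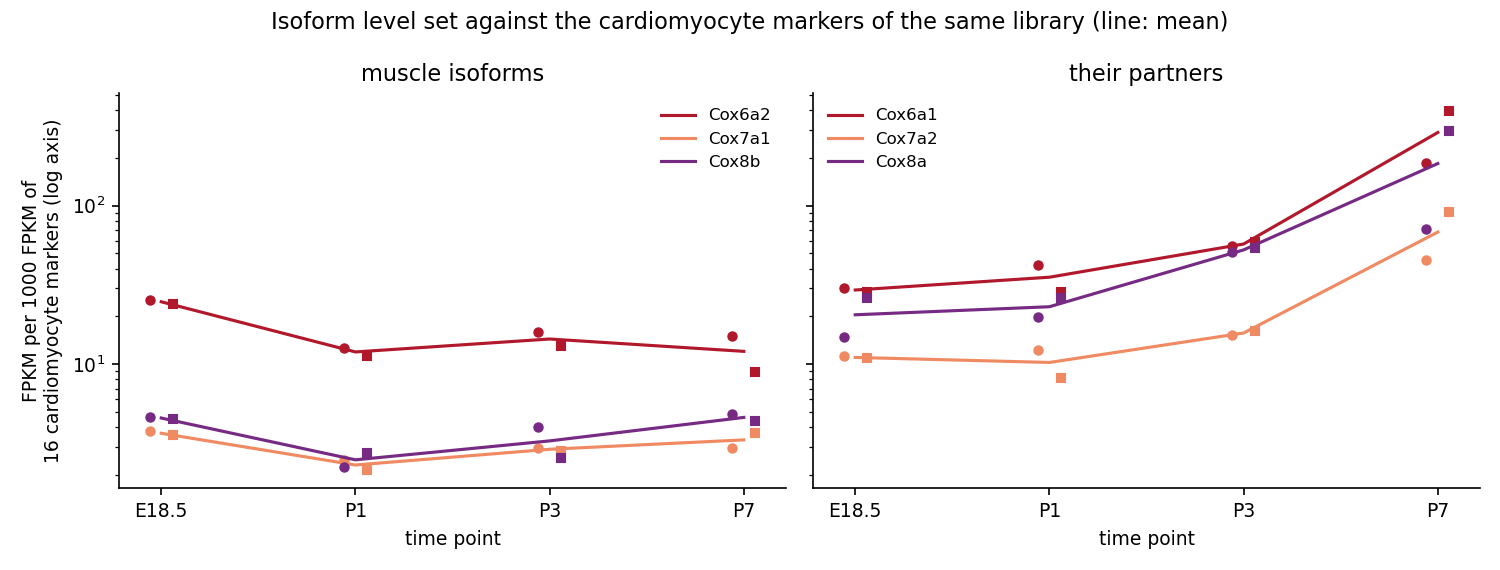
Isoform FPKM per 1000 FPKM of the 16 summed cardiomyocyte markers (log axis) in the 8 mouse RNA libraries by time point, muscle isoforms on the left and their partners on the right; points are libraries and lines join means. Cox7a1 and Cox8b overlap their E18.5 values at P7, Cox6a2 does not, and the 3 partners are highest at P7.

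Across the 8 libraries the muscle isoforms followed each other closely. Pearson's r of log2(FPKM + 1) was 0.99 for each pair among Cox6a2, Cox7a1 and Cox8b; these points share their time points and the shift in markers, so r is a description. Cox6a1, Cox7a2 and Cox4i1 had r of 0.99 to 1.00 with each other, while Cox8a had r of 0.64 to 0.74 with the isoforms other than Cox4i2. Between the groups r was nearly as high. The muscle isoforms had r of 0.93 to 0.96 with Cox6a1, Cox7a2 and Cox4i1, and of 0.97 to 0.98 with Cox6b1. Cox4i2 had negative r with each of the other 9, from -0.28 with Cox6b2 to -0.80 with Cox6a2 and Cox7a1.

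The tested genes outside the 10 with the most similar pattern (highest r over the same 8 libraries) were ranked for 8 isoforms. For Cox6a2 they were Myl3 (r = 0.995), Myl2 (0.995), Sptb (0.994), Cox5a (0.994) and Atp5g1 (0.994), of which Myl2 and Myl3 belong to the cardiomyocyte list. For Cox7a1 they were Cobl (0.999), Myl2 (0.998), Ndufa5 (0.998), Atp5g1 (0.997) and Got1 (0.997). For Cox8b they were Cox7c (0.993), Kcne1 (0.993), Ndufa5 (0.993), Ldhb (0.992) and Cobl (0.991).

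The lists of the ubiquitous forms were made of other names. Cox6a1 was closest to Ndufa13 (0.998), Usmg5 (0.998), Echs1 (0.997), Map1lc3a (0.996) and Atp5g2 (0.996), and Cox7a2 to Fh1 (0.999), Sdhb (0.999), Idh3b (0.999), Mdh2 (0.998) and Usmg5 (0.998). Cox4i1 was closest to Tcea3 (0.999), Pcbd1 (0.999), Sdhb (0.999), Fh1 (0.998) and Sirt3 (0.998). The best match of Cox8a was weaker, Atat1 (0.967), followed by Dap3 (0.962), Tsfm (0.949), Gucd1 (0.948) and Ttll5 (0.946). Cox4i2 was closest to Col14a1 (0.991), Tnxb (0.983), G530011O06Rik (0.981), 1500009L16Rik (0.981) and Tnfrsf14 (0.980); Col14a1 went from 5.63 FPKM in the mean at E18.5 to 26.6 at P7.

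Complex IV genes outside the 10 were tested in the same fit: 6 other nuclear subunits, 3 paralogues, 3 mitochondrial subunits and 21 assembly genes, of which 28 were tested in mouse. The subunit genes Cox5a, Cox5b, Cox6c, Cox7b, Cox7c and Ndufa4 were lower at P7 than at E18.5, with log2FC between -2.08 and -1.38, and all 6 were called. Of 21 genes listed for assembly of the complex, 4 were called lower, beside 12.3% of all tested genes. The shares of all genes for the other comparisons are given above with the isoform counts. Cox20, which helps mature the copper-binding subunit 2, had the largest change (log2FC -2.18, SE 0.13, limma adjusted p = 1.36e-05). The other 3, named after their values were seen, were Cox10, an enzyme of heme A synthesis (-1.26, SE 0.14, limma adjusted p = 0.000177), Lrpprc, which stabilises mitochondrial mRNA (-1.01), and Cox17, a copper chaperone (limma adjusted p = 0.00464). Lrpprc and Cox17 were no longer called with TPM, without E18.5 replicate 2 or without P7 replicate 2, while Cox11 gained a call in the second case and Cox7a2l in the last. The other 18 genes tested were not called, 17 of them from the assembly list, and the other was the paralogue Cox7a2l (log2FC -0.81). The median log2FC over all 28 was -0.74.

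The steepest changes among them were smaller than those of the muscle isoforms. After Cox20, the largest at P7 were Cox5a (log2FC -2.08, SE 0.21, adjusted p = 0.000107), Cox7b (-2.08, SE 0.16, adjusted p = 3.58e-05), Cox5b (-2.06, SE 0.18, adjusted p = 5.24e-05) and Cox6c (-1.96, SE 0.16, adjusted p = 4.47e-05), all by limma. At P1, Cox6c alone was called (log2FC -1.06, adjusted p = 0.00178), and no gene was with TPM, without E18.5 replicate 2 or without P1 replicate 1. At P3, 6 were called, led by Cox6c (-1.52), Cox7b (-1.46), Cox5b (-1.29), Cox20 (-1.20) and Cox7c (-1.10), all lower; Cox20, Cox7c and Cox5a, which was the other gene, lost their calls with TPM, Cox7c and Cox5a without P3 replicate 2, and Cox5a without E18.5 replicate 2. Between P1 and P7, 6 were called lower, led by Cox20 (-1.50), Cox5a (-1.46), Cox5b (-1.21), Cox7b (-1.13) and Cox10 (-1.08). Without P7 replicate 2, Cox10 (-0.99) and Cox7c (-0.87) were not called. The mitochondrial subunit genes mt-Co1, mt-Co2 and mt-Co3 are listed at 0 in all 8 mouse libraries, and nothing can be read from them.

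Chromatin at the isoform genes was read from ATAC-seq peaks, which mark accessible DNA, within 2.5 kb of a transcript start. Cox8a had a peak in all 8 lists, and Cox4i1, Cox6a1, Cox7a1 and Cox7a2 in 7 lists each. Cox6a2 and Cox6b1 had one in 5 lists, Cox6b2 in 4, and Cox8b and Cox4i2 in none. The Cox6b2 peak at P1 only reached into this window, with its summit 2624 bases from a start. Among all tested genes, 36.6% had a peak in 8 lists and 7.22% in none.

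Cox8b had no peak within the limit at E18.5 either, when its FPKM was 136.5 and 170.4. The nearest peak lay 17997 and 17936 bases from its start in the E18.5 lists, 8256 and 12155 in those of P1, 2766 and 8140 in those of P3, and 8271 and 8193 in those of P7. Cox4i2 had its nearest peak at between 4.17 and 46.2 kb. Absence from a list says that no peak passed the authors' caller, not that the DNA was closed.

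Cox7a1 and Cox6a2 were the muscle isoforms with peaks. At Cox7a1 the summit lay within 123 bases of a start in all 7 lists, with fold enrichment over background of 6.63 and 5.41 at E18.5, with P1 at 4.84 in 1 list, P3 at 5.95 and 4.8, and P7 at 4.15 and 5.7. These values overlapped between time points, and the FPKM of Cox7a1 was 22.6-fold lower at P7 than at E18.5. Fold enrichment was not scaled between the lists, which differ in length, so a change in accessibility was not tested. At Cox6a2 the E18.5 peaks had summits 115 and 16 bases from the start (4.55 and 6.8-fold), and the peak of the first list did not reach the start. In 1 list at P7 the summit lay 9 bases away (3.86-fold), whereas the P1 and P3 peaks had summits 2102 and 1979 bases away.

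In each of the 7 lists where both had a peak, that of Cox7a2 was taller than that of Cox7a1. Cox7a2 reached 7.31 and 6.78-fold at E18.5, with P1 at 7.93-fold in 1 list, P3 at 9.51 and 11.6-fold, and P7 at 7.17 and 8.25-fold. Cox8a reached 7.65 and 6.87-fold at E18.5, with P1 at 7.53 and 5.5-fold, P3 at 8.97 and 10.5-fold and P7 at 9.05 and 6.57-fold. Both genes had lower fold enrichment at E18.5 than at P3, in lists that were not scaled to each other. Their mean FPKM was highest at E18.5, but the Cox8a libraries of E18.5 and P3 overlapped in FPKM.

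In both libraries of a time point, 5 of the 10 isoform genes had a promoter peak at E18.5, against 56.7% of all tested genes, and 2 at P1 against 41.3%. At P3 and at P7 there were 6, against 87.5% and 83.2%. The lists held between 13149 and 95257 peaks, and taking only the 13149 best-scored peaks of each left 4, 2, 2 and 2 genes at E18.5, P1, P3 and P7, against 54.1%, 31.5%, 37.2% and 45.2% of all tested genes. At P1 the second list covered 43% of tested genes, and 6 isoform genes had a peak in the first list and 3 in the second. The start of Cox4i1 lies 101 bases from that of Emc8 on the opposite strand, so its peak cannot be given to either gene.

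**Figure D4:**
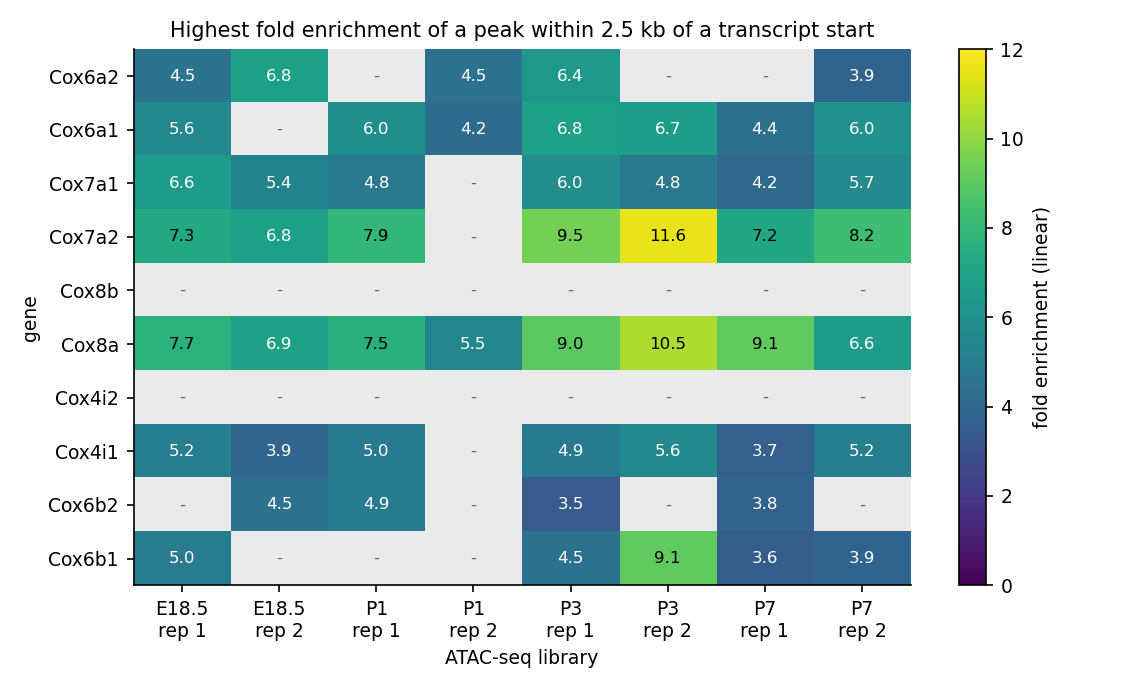
Highest fold enrichment (linear scale) of an ATAC-seq peak within 2.5 kb of a transcript start, for the 10 isoform genes (rows) in the 8 mouse peak lists (columns); grey cells with a dash have no peak. Cox8a is filled in all 8 columns, Cox8b and Cox4i2 in none, and the highest value is 11.6 at Cox7a2 in P3 replicate 2.

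In rat cardiomyocytes, Cox6b2 and Cox4i2 had higher levels in all 3 TSA libraries than in any DMSO library, and the Cox6a2 share was lower. Cox6b2, the testis form, was at 5.731, 2.314 and 5.998 FPKM in DMSO and 45.7, 46.2 and 46.5 in TSA. The 3 TSA libraries lay close together, far above the controls, and the mean was 9.86-fold higher (log2FC 3.13, SE 0.28). Its share of subunit 6b went from 1.49% ± 0.672 to 11.9% ± 2.2 (SD, n = 3). The level of Cox6b1, and with it this share, counts 2 annotated genes with that symbol. Of these, 1 is a locus of 261 bases on chromosome 2 that held 103.2 to 177.7 of the 297 to 448 FPKM. A share without that locus was not computed.

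Cox4i2 was at 3.56, 2.46 and 3.04 FPKM in DMSO and 6.35, 7.35 and 10.9 in TSA, without overlap and 2.71-fold higher in the mean (log2FC 1.17, SE 0.21). Of the 9 rat genes 8 were tested, and these 2 were called higher, against 1.81% of 13624 genes. The call of Cox4i2 was lost with no expression filter, with a mean FPKM filter of 5, and in 5 of the 6 fits that left out a library, without a change of direction. Cox4i1 stayed at 617 to 724 FPKM in DMSO and 700 to 865 in TSA (log2FC 0.17, SE 0.13).

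Cox6a2 was at 873, 987.5 and 1116 FPKM in DMSO and 578, 552 and 887 in TSA, lower in TSA within each replicate number but with overlapping groups (log2FC -0.59, SE 0.21, not called). Cox6a1 was at 544, 569 and 600 in DMSO and 566, 564 and 849 in TSA. As a result the share of Cox6a2 was 61.6%, 63.4% and 65% in DMSO and 50.6%, 49.5% and 51.1% in TSA, without overlap (SD 1.72 and 0.832). The genes were chosen with these shares known, so this is a description. Cox6a2 was also lower per 1000 FPKM of cardiomyocyte markers, at 62.6 to 67.19 in DMSO and 35.72 to 43.9 in TSA.

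Cox8b was uneven among the controls, at 207, 233 and 48.05 FPKM in DMSO and 85.5, 65.7 and 121.5 in TSA. The lowest control, replicate 3, lay below all 3 treated libraries while the other 2 controls lay above them, and the log2FC of -0.59 (SE 0.59) was not called. Without DMSO replicate 3 it was -1.31 (SE 0.25) and passed the threshold. That library also had the highest control sum of pericyte and smooth muscle markers (1249 FPKM against 614 and 581.3) and the lowest of endothelial ones (72.43 against 233.1 and 225.7) and of macrophage ones (474.5 against 978.5 and 997.4), and their part in the result was not tested. The Cox8b share of subunit 8 was 21.9%, 23.6% and 6.47% in DMSO and 10.1%, 8.51% and 12.2% in TSA, overlapping through the same library. Cox8a was at 694 to 756 FPKM in DMSO and 706 to 874 in TSA.

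Cox7a1 was barely detected in rat, at 0.03 to 0.31 FPKM in DMSO and 0, 0 and 0.37 in TSA, and was not tested. Its rat transcript model is 1493 bases long, against 393 for the main mouse transcript, so the 2 species are not comparable for this gene. The rat gene Cox7a2l2, given under its own symbol, was at 419 to 489 FPKM in DMSO and 459 to 560 in TSA. None of 25 other complex IV genes was called by limma, 2 of them had an unadjusted p under 0.05, and limma-voom on estimated reads called 0. The subunit genes Cox5a, Cox5b, Cox6c, Cox7b, Cox7c and Ndufa4 had log2FC between -0.09 and 0.11.

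Cardiomyocyte markers summed to 13492 to 17834 FPKM in DMSO and 12565 to 24836 in TSA, with 0 of 14 tested called by limma (2 at an unadjusted p under 0.05, 0 by limma-voom). TSA replicate 3 had the highest cardiomyocyte sum of the 6 libraries and the lowest fibroblast sum, and also the highest TSA level of each isoform gene tested. Fibroblast markers summed to 6531 to 7130 and 3615 to 6057, with 0 of 9 called (0 at an unadjusted p under 0.05, 0 by limma-voom). Macrophage markers summed to 978.5, 997.4 and 474.5 FPKM in DMSO and 525.6, 447.5 and 396.1 in TSA, with 0 of 6 called by limma (4 at an unadjusted p under 0.05, 0 by limma-voom). Endothelial markers summed to 72.43 to 233.1 FPKM in DMSO and to at most 165.6 in TSA, with 0 of 7 called by limma (5 at an unadjusted p under 0.05, 1 by limma-voom). Pericyte and smooth muscle markers summed to 581.3 to 1249 and 466.2 to 897.6, with 1 of 9 called, higher in TSA. The part of these markers in the isoform levels was not tested. The levels in mouse and rat come from separately normalized files and were not compared by a test.

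**Figure D5:**
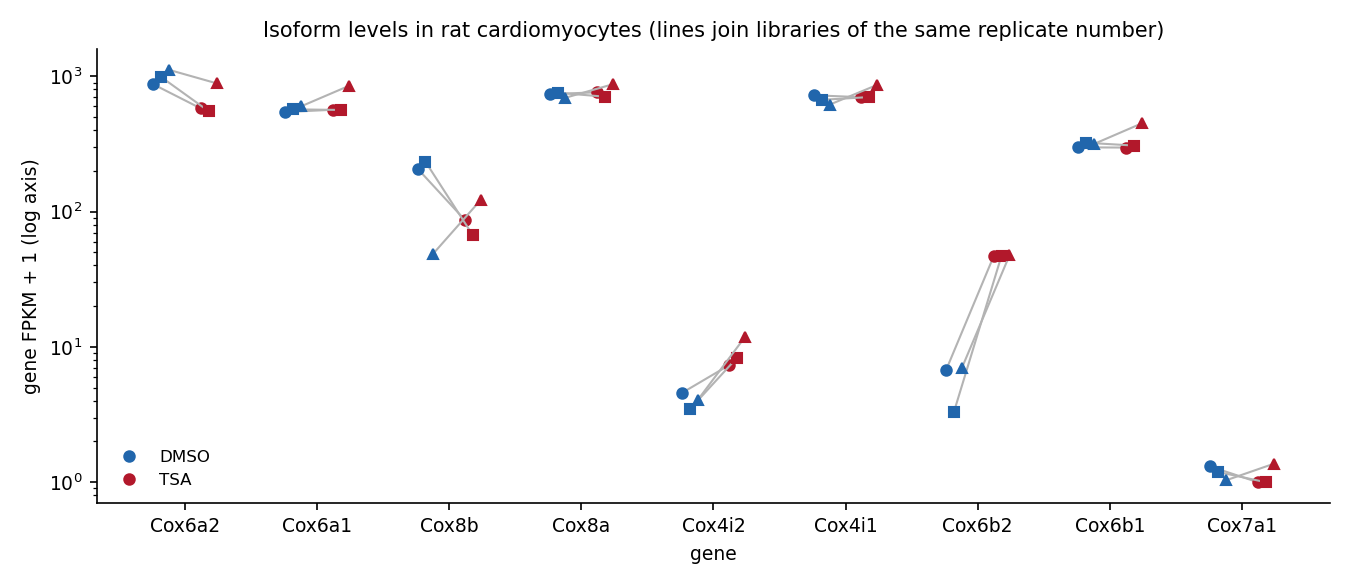
Gene FPKM + 1 (log axis) of the 9 isoform genes found in rat, for the 3 DMSO (blue) and 3 TSA (red) libraries; grey lines join libraries of the same replicate number. Cox6b2 and Cox4i2 are higher in all 3 TSA libraries, Cox6a2 is lower along each line, and Cox8b has 1 line that runs opposite to the others.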

How the data were processed

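RNA-seq and ATAC-seq of mouse cardiomyocytes and RNA-seq of rat cardiomyocytes were analysed; HiChIP libraries were not analysed here. Per the file headers and the labels, the authors aligned RNA reads with HISAT2 2.1.0 to mm10 or rn6 and deposited StringTie 1.3.5 (mouse) or 1.3.4d (rat) transcript files with FPKM, TPM and coverage. The kit does not mark strand, so Cox4i1 and Emc8, which share 154 exon bases, cannot be fully told apart. The authors called peaks per library with MACS2 on Bowtie2 alignments, and the deposited lists hold a score, the fold enrichment (a ratio) and −log10 p and q values.

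FPKM was summed over a gene's transcripts. Isoforms and gene lists were chosen with earlier results of these data known. Other complex IV genes were named where called, up to the 5 largest changes per comparison. log2(FPKM + 1) was fitted with limma 3.58.1 (R 4.3.3; trend, two-sided, Benjamini-Hochberg over all genes tested; FPKM of at least 1 in 2 mouse or 3 rat libraries), with all 4 mouse time points in 1 fit. The study tested read counts; the files hold FPKM, hence limma with the study's thresholds. The procedure was tested on simulated data. Depth was estimated from coverage at a read length of 150 bases, and read numbers cover counting error only. Near-identical transcripts were sought with BLAST 2.17.0+; Cox6a1 had 1 processed pseudogene at 92.9% identity over 496 bases, with at most 0.107 FPKM. Promoter sequences are from RefSeq (GRCm38.p6), GENCODE vM21 gave the mouse coordinates. Same-numbered rat libraries had r of 0.22, 0.19 and 0.35 between their deviations from group means. Libraries of different numbers were not compared in this way, and the sources used here do not say that the numbers pair them. The fit with the replicate number as a block changed no call.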

Additional observations from a re-analysis of the deposited data

How the results depend on the processing

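No called direction reversed under the alternatives run. Estimated reads in place of FPKM remove the division by length. The Cox6a2 share then became 50.1%, 29.1%, 23% and 5.72% at E18.5, P1, P3 and P7, with 59.9% in DMSO and 46.8% in TSA. The Cox7a1 share became 16.8%, 12.2%, 10% and 3.09% at the 4 time points. The Cox8b share became 13.6%, 6.64%, 3.93% and 2.6% there, with 12.1% in DMSO and 6.87% in TSA. Protein-coding transcripts alone gave a Cox6a2 share of 46.2% at E18.5. Other complex IV genes called at P1 numbered 1, but 5 with size factors and 0 with TPM, and at P3 6, but 3 with TPM. In rat, 1 isoform gene in place of 2 was called without an expression filter and with a mean FPKM of at least 5. At equal list lengths, 2 isoform genes in place of 6 had a promoter peak in both libraries at P3, and likewise 2 in place of 6 at P7.

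Leaving out 1 library at a time gave 2 to 6 isoform genes called at P1 and 1 to 3 with TSA, 0 to 4 other complex IV genes at P1, and 3 to 6 isoform genes with a promoter peak at P1; the lone library left in a mouse group is then assumed to vary like the others. The replicate block, the replicate number as a term, gave 6, 7, 10 and 5 isoform genes in the mouse comparisons and 2 in rat, equal to the counts without it, and changed no other call. In mouse r of such deviations was between -0.10 and 0.17, and a pairing by number is not given there either. Low levels limit Cox6b2 in mouse after birth and Cox7a1 in rat.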
